A study of Mus musculus with 18 samples.

Results

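The GIMAP genes encode GTPases of immunity-associated proteins, and 8 of them, Gimap1, Gimap3, Gimap4, Gimap5, Gimap6, Gimap7, Gimap8 and Gimap9, were followed through 6 populations of mouse intestinal CD4 T cells. They were taken by gene symbol as 8 of the 38392 genes in the deposited expression table. All 8 passed the filter on low values that left 15472 genes for testing. The table holds 1 more gene with a Gimap symbol, the antisense transcript Gimap1os, which is described beside Gimap1.

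The study asked what becomes of T cells that carry 1 T-cell receptor when they settle in different layers of the gut. Donor mice had the strain label C57BL/6 TNa TNb RAG1-/- Foxp3GFP, a clonal model whose receptor came from a peripherally induced regulatory T cell and whose green fluorescent reporter marks Foxp3. CD4+CD8α-Foxp3- donor cells were transferred into C57BL/6 TCRa-/- TCRb-/- hosts, which make no αβ T cells of their own, and the progeny were sorted from the small intestine 6 weeks later. CD4+CD8α+ cells (DP), CD4+Foxp3+ cells (TR) and CD4+CD8α-Foxp3- cells that had kept the starting phenotype (SP) were each taken from the intraepithelial compartment (IEL) and from the lamina propria (LP), the connective tissue under the epithelium. Each of the 6 groups had 3 RNA sequencing libraries, and all groups shared the donor and host genotypes. The libraries were labelled as biological replicates, but neither the animals behind each library nor the ages of the mice were given in the sources used here, so p-values measure the spread between these libraries.

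GIMAP proteins share a GTP-binding domain and are expressed mainly in lymphocytes, where they sit on intracellular membranes such as those of lysosomes, the Golgi apparatus and lipid droplets. Several members are needed for lymphocytes to survive: rats and mice without Gimap5 lose peripheral T cells, and mice without Gimap1 in T cells lose mature T cells. The genes lie side by side in the genome, so levels of neighbouring members can be set against each other within 1 locus.

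In the GRCm38 build and GENCODE M21 annotation, the 8 genes filled 123618 bases at chr6:48647234-48770851, and all were annotated as protein coding. In the order of increasing coordinates they were Gimap8 (ENSMUSG00000064262, chr6:48647234-48660875), Gimap9 (ENSMUSG00000051124, chr6:48676129-48679114), Gimap4 (ENSMUSG00000054435, chr6:48684549-48692060), Gimap6 (ENSMUSG00000047867, chr6:48701582-48708225), Gimap7 (ENSMUSG00000043931, chr6:48718621-48724636), Gimap1 (ENSMUSG00000090019, chr6:48739054-48743795), Gimap5 (ENSMUSG00000043505, chr6:48746197-48754210) and Gimap3 (ENSMUSG00000039264, chr6:48764464-48770851). Gimap6 and Gimap3 lie on the minus strand and the other 6 on the plus strand. Gimap1os (ENSMUSG00000044867, chr6:48738346-48741444) runs on the minus strand over the start of Gimap1 and shares 1107 exonic bases with it. The library kit, Nextera XT, does not mark strand, so reads over those bases cannot be assigned to either transcript. Runs of 50 bases were compared only with genes of the deposited table. Gimap3 and Gimap5, the closest pair of paralogues in the family, had 190 identical runs in their transcripts. Runs shared with any other such gene made up 7.83% of Gimap3 runs and 4.53% of Gimap5 runs. Counts of both are therefore uncertain to at least that extent, while Gimap4, Gimap7, Gimap8 and Gimap9 shared no run with another gene of the table. The annotated gene Gm28053 overlaps Gimap7, Gimap1 and Gimap5 on the same strand, is not in the table and was not searched.

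The 250 bases before the annotated start are shown for 4 members: Gimap3 and Gimap1, which differed between Foxp3+ and unconverted cells at 1 site each, Gimap7, which differed between the 2 sites, and Gimap6, the member whose pattern departed most from the rest. They are from RefSeq, build GRCm38.p6, which had windows for all 8 members and 2 for Gimap8, and are written 5′ to 3′ on the strand of the gene. Gimap3 is at chr6:48770852-48771101 on the minus strand, Gimap1 at chr6:48738797-48739046 on the plus strand, Gimap7 at chr6:48718371-48718620 on the plus strand and Gimap6 at chr6:48708245-48708494 on the minus strand. Capitals mark matches to 2 of 4 searched motifs, on either strand: the Runx core TGTGGT, read as ACCACA on the other strand, in Gimap1 and Gimap7, and the forkhead motif GTAAACA in Gimap3.
Gimap3: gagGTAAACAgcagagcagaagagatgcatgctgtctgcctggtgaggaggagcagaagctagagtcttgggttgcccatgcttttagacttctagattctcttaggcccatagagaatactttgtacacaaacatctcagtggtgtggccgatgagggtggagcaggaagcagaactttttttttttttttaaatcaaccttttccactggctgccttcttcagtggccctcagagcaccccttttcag
Gimap1: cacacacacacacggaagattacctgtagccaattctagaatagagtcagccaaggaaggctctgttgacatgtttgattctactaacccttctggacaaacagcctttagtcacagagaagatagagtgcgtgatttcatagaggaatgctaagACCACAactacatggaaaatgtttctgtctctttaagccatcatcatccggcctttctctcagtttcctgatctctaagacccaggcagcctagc
Gimap7: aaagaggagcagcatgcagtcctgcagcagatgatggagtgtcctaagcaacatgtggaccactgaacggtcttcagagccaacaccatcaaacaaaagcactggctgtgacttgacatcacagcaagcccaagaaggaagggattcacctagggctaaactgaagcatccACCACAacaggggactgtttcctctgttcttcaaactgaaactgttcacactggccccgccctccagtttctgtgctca
Gimap6: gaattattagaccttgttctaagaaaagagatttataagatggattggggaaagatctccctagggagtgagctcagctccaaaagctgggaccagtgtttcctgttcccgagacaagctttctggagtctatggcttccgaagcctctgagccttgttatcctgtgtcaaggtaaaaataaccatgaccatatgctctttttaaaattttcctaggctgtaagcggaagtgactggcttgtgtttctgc
The Runx core began 95 bases before the start of Gimap1, 79 before that of Gimap7 and 145 before that of Gimap4, and was in no other member's window. Of all 32851 RefSeq promoter windows of this length, 14% held it. The forkhead match began 247 bases before the start of Gimap3, and 3.17% of all windows held that motif. No member window held CCGGAA, a longer form of the ETS core GGAA, which 12% of all windows held. None held the TCF/LEF motif CTTTGAT, present in 3.21%. The shorter GGAA alone was not searched. The motifs do not overlap, and a match is a run of letters, not an observed binding site.

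The deposited values are read counts multiplied by 1 factor per library, called normalised counts below, and the whole reads recovered from them came to 5093955 to 8851347 per library. The sort genes followed the labels: Cd8a was at 3364 to 6444 normalised counts in the 6 DP libraries, against 10.5 to 113 in the 6 SP libraries, and Foxp3 was at 66.2 to 164 in the 6 TR libraries, against 0 to 39.9 in SP. The 11 T-cell markers summed to 24633 to 36742 per library. Endothelium, which also expresses GIMAP genes, had marker sums of 112 to 241 over its 11 markers, with Robo4 at 0 in every library, Cdh5 at 0 to 2.10, Tie1 at 29.8 to 42.7, Vwf at 59.1 to 102 and Pecam1 at 0 to 115. IEL TR library 1 stood apart: 18307 genes had a value above 0 there, against 19097 to 20376 in the other 17 libraries. In the same library 7.75% of the total came from the transcript Gm26870, and in the other 17 the most abundant gene took 1.04% to 4.82%. Myeloid markers (9 in the table) summed to 580 to 1110 per library and innate lymphoid markers to 5092 to 17918, most of it from Id2, at 5086 to 7024 in IEL TR, against 11177 to 12522 in IEL SP, and at 10748 to 17862 in LP TR, against 6424 to 10289 in LP SP. In bulk libraries such as these, fewer cells of a type and less RNA per cell cannot be told apart.

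All 8 members were abundant. Per kilobase of exon, the scale on which levels of different genes can be set side by side, Gimap4, which in mouse knockouts is linked to the pace of T-cell death, was the highest member in all 6 groups, with means of 2808 ± 592 in LP DP to 7022 ± 1981 in IEL TR. Gimap6 and Gimap7 held the next 2 places in every group, Gimap1 and Gimap9 the 2 after them, and Gimap3, Gimap8 and Gimap5 the last 3 in that order. Gimap5, the lowest, still had 206 ± 10.9 to 373 ± 35.2 normalised counts per kilobase. In single libraries the members lay between the 85.5th percentile of tested genes, for Gimap5, and the 99.8th, for Gimap4. Between 593 and 23487 reads lay behind each member's value in a library. Together the 8 members took 0.558% to 0.801% of the normalised total of IEL TR libraries, 0.449% to 0.502% of that of IEL DP and 0.487% to 0.524% in IEL SP. In the lamina propria they took 0.323% to 0.376% in LP DP, 0.425% to 0.563% in LP TR and, among the SP libraries, 0.386% to 0.458%.

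The order of the 6 groups was alike for most members. IEL TR had the highest mean of Gimap1, Gimap3, Gimap4, Gimap5, Gimap7, Gimap8 and Gimap9, and LP DP had the lowest mean of the same 7. For Gimap1, Gimap3, Gimap5 and Gimap7 every IEL TR library lay above every library of the group next in order, whereas for Gimap4, Gimap8 and Gimap9 the libraries of the top neighbours overlapped. For Gimap1 and Gimap8 all 9 IEL libraries lay above all 9 LP libraries. In Gimap1, after IEL TR came IEL SP and IEL DP, which overlapped, then LP TR apart from both neighbours, then LP SP and LP DP, which overlapped. For Gimap8 the 3 IEL groups overlapped, with LP TR above LP SP and LP DP. For Gimap7, IEL DP, IEL SP and LP TR followed IEL TR with overlapping libraries, and LP SP and LP DP lay below them, each apart from its neighbour. For Gimap3, Gimap4 and Gimap5 no neighbours below the highest group were apart, and for Gimap9 the lowest group, LP DP, was apart from LP TR above it. Gimap6 had another order, with means of 10423 ± 1826 normalised counts in LP TR, 9517 ± 1487 in LP SP, 9433 ± 2028 in IEL TR, 7749 ± 593 in IEL SP, 7642 ± 756 in LP DP and 6480 ± 257 in IEL DP (SD, n = 3 each). The libraries of LP TR, LP SP and IEL TR overlapped, as did those of IEL SP and LP DP, while all 3 IEL DP libraries lay below all others.

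**Figure D1:**
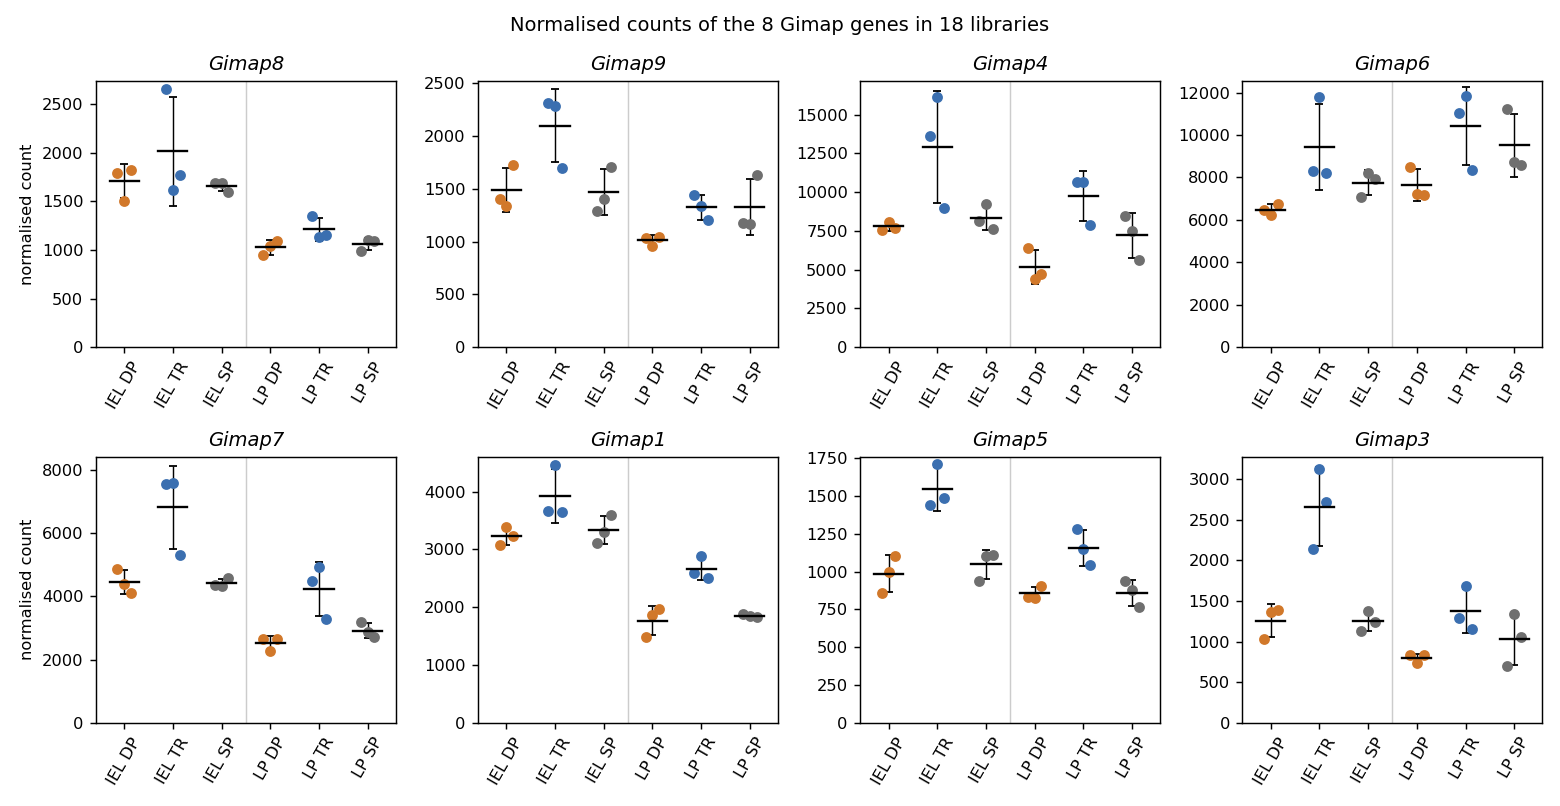
Normalised counts of the 8 Gimap genes in 18 libraries, 1 panel per gene in chromosomal order, with the 6 groups on the horizontal axis. Points are libraries, horizontal lines are group means and bars are ± 1 SD (n = 3); IEL TR is the highest group in every panel except Gimap6, where LP TR is.

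Foxp3+ cells were compared first with the cells that had kept the starting phenotype. In the epithelium 1 of the 8 members, Gimap3, rose in IEL TR, where 2.91% of all tested genes passed the same test in either direction (adjusted p under 0.05, limma). Gimap3, which in mice is the closest paralogue of the survival factor Gimap5, had 2146, 3123 and 2721 normalised counts in IEL TR libraries 1 to 3, against 1131, 1379 and 1243 in IEL SP. The lowest IEL TR library lay well above the highest IEL SP library. On the log2(normalised count + 1) scale the difference was 1.08 ± 0.17 (SE), a 2.11-fold higher level (adjusted p = 0.0342, limma). The call held without IEL TR library 1 (adjusted p = 0.0157) and ended when any other of the 6 libraries was left out (adjusted p 0.0621 to 0.150), with log2 differences of 0.95 to 1.22. It also ended with no filter on low values, with library totals made equal and with the replicate number as a block.

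The other 7 members did not pass the test in the epithelium, and their log2 fold changes were 0.23 to 0.61. Gimap7, whose human counterpart stimulates GTP hydrolysis by a partner GIMAP, had 7563, 7596 and 5306 normalised counts in IEL TR, against 4366, 4333 and 4570 in IEL SP (log2 fold change 0.61 ± 0.16, adjusted p = 0.116). Gimap5, which holds peripheral T cells alive in rats and mice, had 1440, 1713 and 1486 in IEL TR, against 935, 1102 and 1108 in IEL SP (0.56 ± 0.13, adjusted p = 0.0909). In both genes the groups did not overlap, but the difference missed the threshold set over all genes. Without IEL TR library 3, Gimap7 passed it (log2 fold change 0.78, adjusted p = 0.0209). Gimap4 had 13587, 16146 and 8967 normalised counts in IEL TR, against 8148, 9215 and 7631 in IEL SP, so that IEL TR library 3 fell within the IEL SP range (0.59 ± 0.22, adjusted p = 0.260). Gimap8, a large member with tandem GTP-binding domains, had 2656, 1622 and 1768 in IEL TR, against 1693, 1689 and 1601 in IEL SP (0.24 ± 0.20, adjusted p = 0.611). Here the IEL TR mean was carried by library 1, the library that stood apart. Markers of B and plasma cells summed to 55.7 to 322 normalised counts in IEL TR libraries and 144 to 628 in LP TR, against 67.1 to 78.1 in IEL SP and 55.1 to 78.4 in LP SP, and their part in the Gimap values was not tested. The median log2 fold change of the 8 members was 0.54, and that of all tested genes was -0.05.

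In the lamina propria 1 of the 8 members, Gimap1, rose in LP TR, where 5.52% of all tested genes passed the test. Gimap1, which mouse T cells need for their peripheral survival, had 2600, 2889 and 2514 normalised counts in LP TR, against 1886, 1847 and 1825 in LP SP. All LP TR libraries lay above all LP SP libraries, and the LP SP libraries differed little among themselves. The log2 fold change was 0.52 ± 0.10, a 1.44-fold higher level (adjusted p = 0.0273, limma). The call ended when any of the 6 libraries was left out (adjusted p 0.0593 to 0.0998) and with no filter on low values. Gimap3 had 1294, 1681 and 1152 normalised counts in LP TR, against 695, 1338 and 1059 in LP SP, and the groups overlapped (0.45 ± 0.26, adjusted p = 0.403). Gimap9 had means of 1326 ± 117 in LP TR and 1327 ± 265 in LP SP (SD, n = 3 each). Some genes listed as markers of other cells also differed. Pecam1 was at 0 to 7.30 normalised counts in LP TR, against 93.3 to 115 in LP SP (adjusted p = 0.00821). Cst3 was at 803 to 995, against 401 to 527 (adjusted p = 0.0239). Cd79b averaged 77.3, against 3.48 (adjusted p = 0.0252), and Cdh1 4.79, against 187 (adjusted p = 0.00223). Each was the only call of its list, and other listed markers did not all follow. Epcam was at 157 to 254 in LP TR, against 25.4 to 88.1 in LP SP. Lyz2 was at 2.49 to 25.6, against 26.7 to 315, and Tie1 at 35.7 to 40.2, against 33.6 to 39.8. Il22 was at 0 in all 3 LP TR libraries, against 76.9 to 526 in LP SP (adjusted p = 0.00170). The median log2 fold changes of the tested markers were -0.245 for endothelium, 0 for epithelium and 3.28 for B and plasma cells. They were -0.667 for myeloid and -1.03 for innate lymphoid markers. Whether these transcripts came from other cells or from the T cells, and their part in the Gimap1 value, was not tested. The median over the 8 members was 0.44, and that of all tested genes was -0.01.

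The reads that Gimap1 shares with its antisense partner bear on that value. Gimap1os itself averaged 1111 ± 112 normalised counts in LP TR and 1096 ± 82.1 in LP SP (log2 fold change 0.02 ± 0.13, adjusted p = 0.961). In the epithelium it had 1571, 1523 and 1140 in IEL TR, against 661, 855 and 693 in IEL SP (0.93 ± 0.18, adjusted p = 0.0601). Gimap1 there had 3658, 4457 and 3648 in IEL TR, against 3118, 3305 and 3600 in IEL SP (0.23 ± 0.12, adjusted p = 0.406). The 2 transcripts of this locus thus had unlike differences at each site, and their part in each other's counts was not tested.

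CD4+CD8α+ cells and Foxp3+ cells are the 2 fates that the transferred cells took up, and they were set against each other at each site. All 8 members had lower means in DP than in TR at both sites. In the epithelium 1 member, Gimap3, fell in IEL DP relative to IEL TR, where 4.14% of all tested genes passed the test. It had 1027, 1368 and 1384 normalised counts in IEL DP, against the 2146, 3123 and 2721 of IEL TR (log2 fold change -1.08 ± 0.19, adjusted p = 0.0396). The groups did not overlap. The call held without IEL TR library 1 (adjusted p = 0.0258) and ended when any other library was left out (adjusted p 0.0809 to 0.136), with no filter on low values, and with equal totals. The other 7 log2 fold changes ran from -0.69 for Gimap4 to -0.21 for Gimap8. Without IEL TR library 3, Gimap4 (log2 fold change -0.93, adjusted p = 0.0200) and Gimap7 (-0.77, adjusted p = 0.0298) passed the test and Gimap3 did not. IEL TR is shared by this comparison and by that with IEL SP, so that both Gimap3 values rest on the same 3 libraries, and LP TR is shared in the same way.

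In the lamina propria 4 of the 8 members, Gimap1, Gimap3, Gimap4 and Gimap7, fell in LP DP relative to LP TR, where 10.6% of all tested genes passed the test. Gimap4 had 6398, 4372 and 4704 normalised counts in LP DP, against 10648, 10662 and 7899 in LP TR (log2 fold change -0.92 ± 0.17, adjusted p = 0.0183). Gimap3 had 830, 738 and 830 in LP DP, against 1294, 1681 and 1152 in LP TR (-0.77 ± 0.15, adjusted p = 0.0230). In both genes the highest LP DP library lay below the lowest LP TR library. Gimap7 had 2653, 2274 and 2657 in LP DP, against 4480, 4949 and 3293 in LP TR (-0.73 ± 0.16, adjusted p = 0.0291). Gimap1 had 1481, 1865 and 1964 in LP DP, against 2600, 2889 and 2514 in LP TR (-0.60 ± 0.13, adjusted p = 0.0261). Those groups did not overlap either. Gimap5 (-0.43 ± 0.11, adjusted p = 0.0543), Gimap9 (-0.39 ± 0.10, adjusted p = 0.0613), Gimap6 (-0.44 ± 0.14, adjusted p = 0.103) and Gimap8 (-0.24 ± 0.11, adjusted p = 0.259) missed the threshold.

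Each of these 4 calls depended on which libraries entered. The call of Gimap4 ended without LP DP library 2 or 3 or LP TR library 1 or 2 (adjusted p 0.0561 to 0.0665). The call of Gimap3 ended without any 1 LP DP library or without LP TR library 1 (0.0598 to 0.0737). The call of Gimap1 ended without LP DP library 2 or any 1 LP TR library (0.0532 to 0.0872). The call of Gimap7 ended without any 1 LP DP library or LP TR library 1 or 2 (0.0688 to 0.0931). None of the 4 changed sign. With no filter on low values none of the 4 was called. With the replicate number as a block Gimap1 and Gimap4 were called, and Gimap3 and Gimap7 were not.

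CD4+CD8α+ cells were then compared with SP cells. None of the 8 members passed the test in IEL DP against IEL SP, where 0.0582% of all tested genes did, and none in LP DP against LP SP, where 0.291% did. At an unadjusted p under 0.05 Gimap6 alone passed in the epithelium, and Gimap4, Gimap6 and Gimap9 in the lamina propria, where 7.36% and 8.89% of all tested genes did. edgeR and DESeq2 called no member in either comparison. In the epithelium the 8 log2 fold changes lay between -0.26 and 0.04, with a median of -0.02. In the lamina propria they lay between -0.48 and 0.00, with a median of -0.26 and a median over all tested genes of -0.01. Gimap6, which binds the autophagy protein GABARAPL2, had 6454, 6236 and 6749 normalised counts in IEL DP, against 7083, 8220 and 7945 in IEL SP (-0.26 ± 0.08, adjusted p = 0.545). It had 8514, 7215 and 7195 in LP DP, against 11232, 8720 and 8599 in LP SP (-0.31 ± 0.13, adjusted p = 0.541). The groups did not overlap at either site, and neither difference passed the test over all genes.

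**Figure D2:**
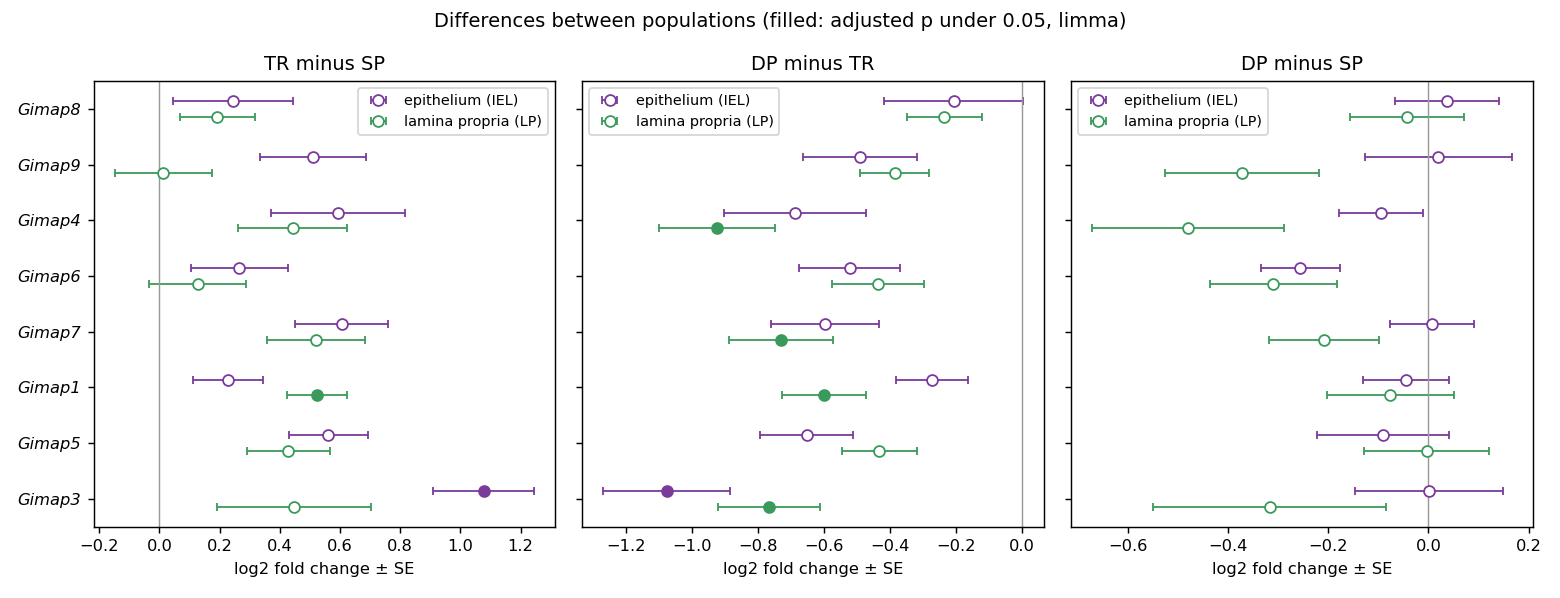
Log2 fold changes ± SE of the 8 members on the log2(normalised count + 1) scale, for TR minus SP, DP minus TR and DP minus SP, with the epithelium above the lamina propria for each gene and a filled point for an adjusted p under 0.05. All 16 values of TR minus SP lie above 0 and all 16 of DP minus TR below it, and 7 of these 32 are filled; the horizontal scales of the panels differ.

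The site was tested within each population. In CD4+CD8α+ cells 6 of the 8 members rose in the epithelium, where 7.19% of all tested genes passed the test for IEL DP against LP DP in either direction. Gimap1 had 3084, 3386 and 3233 normalised counts in IEL DP, against 1481, 1865 and 1964 in LP DP (log2 fold change 0.88 ± 0.12, adjusted p = 0.00959). Gimap7 had 4865, 4385 and 4120 in IEL DP, against 2653, 2274 and 2657 in LP DP (0.82 ± 0.10, adjusted p = 0.00640). Both genes were clearly apart between the sites, and both calls held whichever library was left out. Gimap8 had 1796, 1509 and 1825 in IEL DP, against 947, 1044 and 1095 in LP DP (0.73 ± 0.11, adjusted p = 0.0144), and its call ended without IEL DP library 3 (adjusted p = 0.0506) or LP DP library 2 (0.0581). Gimap3 (0.64 ± 0.14, adjusted p = 0.0423), Gimap4 (0.61 ± 0.14, adjusted p = 0.0467) and Gimap9 (0.55 ± 0.12, adjusted p = 0.0408) were called by a narrow margin. The call of Gimap3 held only without IEL DP library 1 (adjusted p = 0.0226; otherwise 0.0918 to 0.133), that of Gimap4 only without LP DP library 1 (0.00863; otherwise 0.0969 to 0.131), and that of Gimap9 ended whichever library was left out (0.0681 to 0.116). With no filter on low values none of the 6 was called. With all 18 libraries in 1 fit, or with the replicate number as a block, only Gimap1, Gimap7 and Gimap8 were.

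The remaining pair did not follow. Gimap5 had 860, 997 and 1101 normalised counts in IEL DP, against 833, 827 and 908 in LP DP (log2 fold change 0.20 ± 0.12, adjusted p = 0.364). Gimap6 was the only member with a lower mean in the epithelium, with 6454, 6236 and 6749 in IEL DP, against 8514, 7215 and 7195 in LP DP (-0.23 ± 0.08, adjusted p = 0.138). The median over the 8 members was 0.63, and that of all tested genes was 0.05.

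In SP cells 3 of the 8 members rose in the epithelium, where 5.93% of all tested genes passed the test for IEL SP against LP SP. Gimap1 had 3118, 3305 and 3600 normalised counts in IEL SP, against 1886, 1847 and 1825 in LP SP (log2 fold change 0.85 ± 0.10, adjusted p = 0.00382), and its call held in all 6 fits with a library left out. Gimap8 had 1693, 1689 and 1601 in IEL SP, against 985, 1100 and 1093 in LP SP (0.65 ± 0.11, adjusted p = 0.0146). Gimap7 had 4366, 4333 and 4570 in IEL SP, against 3193, 2870 and 2704 in LP SP (0.60 ± 0.10, adjusted p = 0.0144). The groups were apart in all 3 genes. The call of Gimap8 ended without IEL SP library 1 or 2 (adjusted p 0.0604 to 0.0684), and that of Gimap7 without any 1 IEL SP library or LP SP library 3 (0.0521 to 0.0635) and with no filter on low values. The log2 fold changes of Gimap3, Gimap4, Gimap5 and Gimap9 were 0.15 to 0.33 and that of Gimap6 was -0.29 ± 0.13 (adjusted p = 0.234).

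In Foxp3+ cells none of the 8 members passed the test for IEL TR against LP TR, where 0.601% of all tested genes did. The fold changes were nonetheless of the size seen in DP cells, with a median of 0.60 over the 8 members and -0.05 over all tested genes. At an unadjusted p under 0.05 Gimap1, Gimap3, Gimap5, Gimap7, Gimap8 and Gimap9 passed, as did 13.2% of all tested genes. Among the members edgeR called none and DESeq2 called 4, and over all genes they called 80 and 929. The largest was Gimap3, with 2146, 3123 and 2721 normalised counts in IEL TR, against 1294, 1681 and 1152 in LP TR (log2 fold change 0.95 ± 0.20, adjusted p = 0.132). Gimap6 was again the only member below 0 (-0.15 ± 0.20, adjusted p = 0.823). Libraries of IEL TR varied more than those of any other group, with correlations of 0.805 to 0.873 between them across genes, against 0.924 to 0.944 within the other 5 groups.

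Epithelial markers were compared between the sites as well. The 15 epithelial markers summed to 542 to 2199 normalised counts in IEL DP libraries, against 299 to 511 in LP DP, to 523 to 867 in IEL TR, against 204 to 380 in LP TR, and to 597 to 1823 in IEL SP, against 212 to 519 in LP SP. Of the 13 epithelial markers tested, 6 were higher in IEL DP than in LP DP (Vil1, Krt20, Reg3b, Fabp2, Krt8 and Lgals4), 4 were higher in IEL SP than in LP SP (Fabp2, Fabp1, Reg3b and Reg3g), and none passed between IEL TR and LP TR. Large parts of some sums came from Cdh1 and Epcam, which also differed between populations. Cdh1 was at 222 to 383 in LP DP and at 3.25 to 9.46 in the TR libraries of both sites. Epcam was at 305 to 372 in IEL TR and at 157 to 254 in LP TR. Muc2, the goblet-cell mucin, was at 0 in 17 libraries and at 6.01 in IEL SP library 1. The source of these transcripts was not tested. The T-cell marker sum was 32366 to 36742 in IEL DP, against 27104 to 30104 in LP DP, 29585 to 33704 in IEL TR, against 24633 to 29152 in LP TR, and 30828 to 32379 in IEL SP, against 28624 to 33511 in LP SP, where the sites overlapped. The myeloid marker Lyz2 averaged 1.35 in IEL SP and 130.3 in LP SP (adjusted p = 0.0228). The part of other cells in the Gimap values was not tested.

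**Figure D3:**
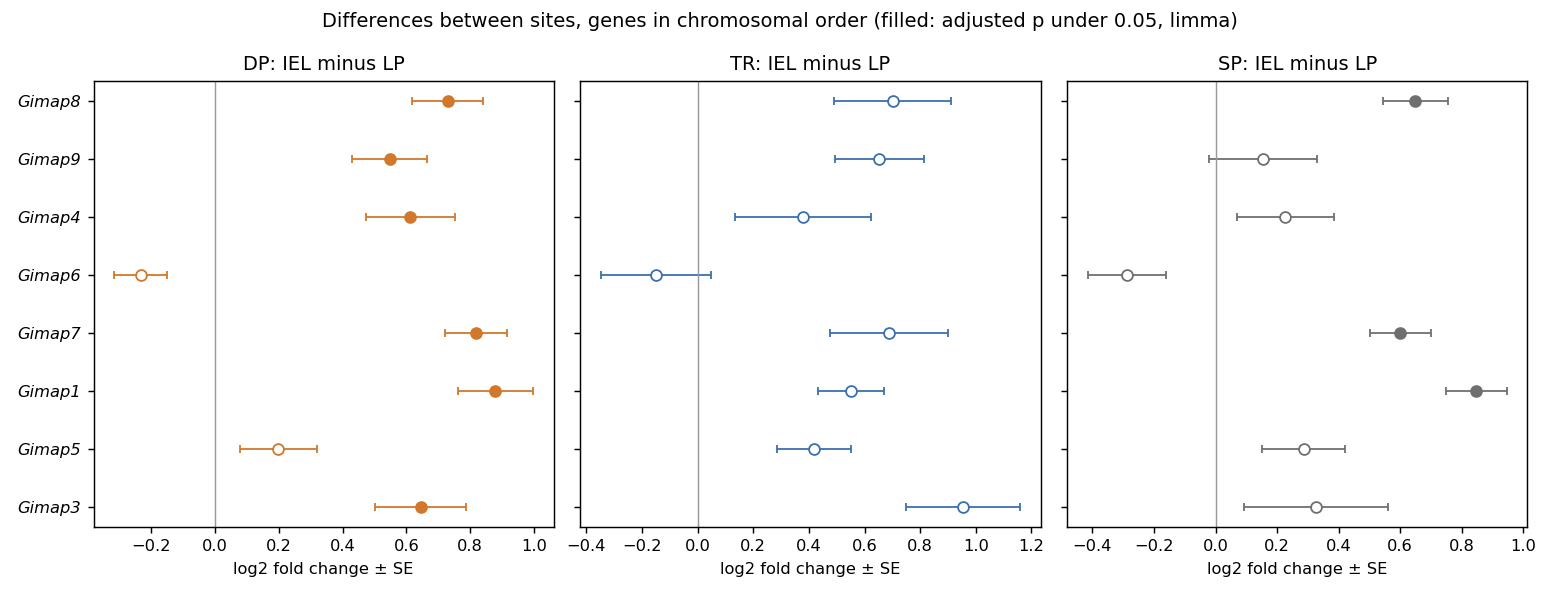
Log2 fold changes ± SE of the 8 members between sites, IEL minus LP, on the log2(normalised count + 1) scale, with 1 panel each for DP, TR and SP cells, genes in chromosomal order from the top, and a filled point for an adjusted p under 0.05. In all 3 panels 7 genes lie above 0 and Gimap6 lies below it; the horizontal scales of the panels differ.

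Whether the difference between populations depended on the site was tested as an interaction, the difference in the epithelium minus that in the lamina propria. For DP against SP none of the 8 members passed, and 0% of all tested genes did. No member reached an unadjusted p under 0.05 there, 1006 of the tested genes did, and over all genes edgeR called 0 and DESeq2 46. For TR against SP none of the 8 members passed, where 0.168% of all tested genes did, and no member reached an unadjusted p under 0.05. The largest value was that of Gimap3 at 0.63 ± 0.34 (adjusted p = 0.676), followed by Gimap9 at 0.50 ± 0.25 (adjusted p = 0.645), while Gimap1 was at -0.30 ± 0.14 (adjusted p = 0.630). Thus Gimap3 was called at 1 site and Gimap1 at the other, but a difference between the sites was not shown for either gene.

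Ratios within a library do not depend on the library's factor. Gimap6 made up 22.9% to 24.3% of the normalised counts of the 8 members in IEL DP libraries, 19.9% to 24.3% in IEL TR and 25.5% to 27.0% in IEL SP. In the lamina propria it made up 35.3% to 37.5% in LP DP, 31.4% to 33.3% in LP TR and 34.3% to 39.3% in LP SP. All 9 IEL libraries therefore lay below all 9 LP libraries, with medians of 24.3% and 35.3%. Gimap4 showed no such split, at 26.0% to 33.1% in IEL libraries and 22.7% to 31.2% in LP libraries.

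The ratio of Gimap1os to Gimap1 also differed by site. It was 0.213, 0.179 and 0.221 in IEL DP, against 0.496, 0.425 and 0.435 in LP DP. It was 0.212, 0.259 and 0.193 in IEL SP, against 0.601, 0.624 and 0.549 in LP SP. In Foxp3+ cells the sites overlapped, with 0.429, 0.342 and 0.312 in IEL TR, against 0.396, 0.429 and 0.424 in LP TR. Gimap1os had a log2 fold change of -0.58 ± 0.14 in IEL SP against LP SP (adjusted p = 0.0588) and of -0.27 ± 0.12 in IEL DP against LP DP (adjusted p = 0.210), opposite in sign to those of Gimap1. It fell in DP relative to TR in the epithelium (-1.09 ± 0.17, adjusted p = 0.0265) and in the lamina propria (-0.48 ± 0.12, adjusted p = 0.0442).

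Gimap3 and Gimap5 face each other from opposite strands at the end of the cluster. Gimap3 had 1.49, 1.82 and 1.83 normalised counts for each of Gimap5 in IEL TR, against 1.21, 1.25 and 1.12 in IEL SP. In LP TR the ratio was 1.01, 1.46 and 1.10, against 0.740, 1.53 and 1.38 in LP SP, and the groups overlapped. CD4+CD8α+ cells had 1.19, 1.37 and 1.26 in the epithelium and 0.996, 0.893 and 0.914 in the lamina propria.

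**Figure D4:**
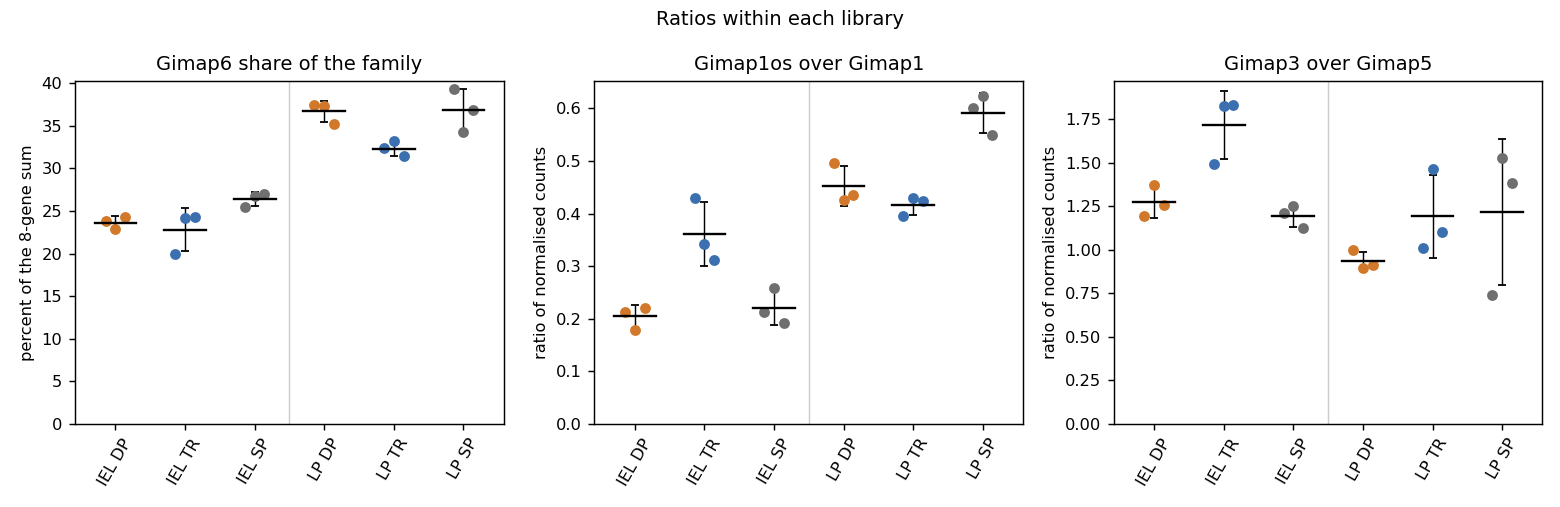
Gimap6 as a percent of the summed normalised counts of the 8 members, the ratio of Gimap1os to Gimap1, and the ratio of Gimap3 to Gimap5, in each of 18 libraries by group. Points are libraries, lines are means and bars are ± 1 SD (n = 3); the Gimap6 share is 19.9% to 27.0% in IEL libraries and 31.4% to 39.3% in LP libraries.

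The members mostly varied together. Over the 18 libraries, which differ in group and depth, the 28 pairs of members had Pearson correlations of log2 values from -0.288 to 0.903 with a median of 0.764. After the group means were taken out they ran from -0.397 to 0.778 with a median of 0.243. Against the mean profile of the family, which includes the gene itself, Gimap7 had an r of 0.964 and Gimap6 of 0.353, and the other 6 had 0.752 to 0.927.

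Among other genes, those whose profile over the 18 libraries was most like the family mean were Ccr9 (r = 0.951), Nyx (0.936), Cnp (0.925), Gm14127 (0.925) and Gm12250 (0.921). Ccr9, the receptor for the small-intestinal chemokine CCL25, averaged 4074 ± 1810 normalised counts in IEL TR, 1758 ± 331 in IEL DP and 1978 ± 253 in IEL SP. In the lamina propria it averaged 2471 ± 743 in LP TR, 955 ± 31.1 in LP DP and 1364 ± 96.3 in LP SP. Its log2 fold change was 0.93 ± 0.37 in IEL TR against IEL SP (adjusted p = 0.284) and 0.82 ± 0.21 in LP TR against LP SP (adjusted p = 0.0681). Nyx shares 8 runs of 50 bases with Gimap3, so its reads are not wholly apart from the family. The most opposite profiles were those of Prdx6 (r = -0.911), Nr4a2 (-0.905), Sap30 (-0.903), 1700047K16Rik (-0.890) and Emp1 (-0.884). Nr4a2, a receptor-induced nuclear receptor, fell in TR relative to SP, with log2 fold changes of -4.05 ± 0.56 in the epithelium (adjusted p = 0.0240) and -3.55 ± 0.47 in the lamina propria (adjusted p = 0.00628).

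Several GIMAP genes are known to be expressed in resting T cells, and a list of 25 genes of T-cell quiescence, egress and survival, 24 of them tested, was followed beside the family. In IEL TR against IEL SP 7 rose and 1 fell, where 1.49% and 1.42% of all tested genes did, and the 3 with the smallest p were Dusp1, a MAP kinase phosphatase (log2 fold change 1.89), the chromatin organiser Satb1 (1.76) and the costimulatory receptor Cd27 (2.07). The median of the list was 0.35, and that of all tested genes was -0.05. In LP TR against LP SP 2 rose and 6 fell, where 3.24% and 2.28% of all tested genes did, led by the transcription factor Tcf7 (-3.89), Cd27 (2.19) and the interleukin-7 receptor Il7r (-1.31), with a median of -0.17 against -0.01 over all tested genes. In DP against TR 1 rose and 5 fell in the epithelium, led by Dusp1 (-2.02), Satb1 (-3.05) and Bcl2 (2.16), and 6 rose and 7 fell in the lamina propria, led by Tcf7 (3.36), Lef1 (-2.34) and Foxp1, with means of 1440.4 normalised counts in LP DP and 511 in LP TR. Of all tested genes 1.78% rose and 2.36% fell in the epithelium, and 3.86% rose and 6.78% fell in the lamina propria. In DP against SP the only call was that of Satb1 in the lamina propria (-1.13), where 0.181% of all tested genes fell. Between sites the list went the other way from the family: in IEL DP against LP DP none rose and 9 fell, and in IEL SP against LP SP none rose and 11 fell, while 6 and 3 Gimap members rose. Of all tested genes 3.13% rose and 4.06% fell in DP cells, and 2.25% rose and 3.68% fell in SP cells. The smallest p were those of Dusp1 (-2.34), Klf6 (-1.78) and Foxo1 (-2.17) in DP cells and of Satb1 (-2.30), Dusp1 (-2.17) and Klf6 (-1.54) in SP cells. The median log2 fold change of the list was -0.48 and -0.82 in those comparisons, against 0.63 and 0.31 for the 8 members and 0.05 and 0.03 for all tested genes. In the site dependence of TR against SP 2 genes of the list were higher, Klf3 (2.63 ± 0.39, adjusted p = 0.0365) and Dusp1 (1.96 ± 0.30, adjusted p = 0.0450). Of all tested genes 0.11% were higher there.

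Mouse Gimap3 and Gimap5 have been linked to Bcl2 family proteins, and Gimap6 to the GABARAP and LC3 proteins of autophagy. Of 19 such partner genes, all tested, 1 fell in IEL TR against IEL SP and 2 fell in LP TR against LP SP. Of all tested genes 1.42% and 2.28% fell there. The list medians were -0.01 and -0.24, and the all-gene medians -0.05 and -0.01. Bcl2, the survival factor, had 230, 250 and 363 normalised counts in IEL TR, against 1130, 887 and 1349 in IEL SP (log2 fold change -2.0 ± 0.25, adjusted p = 0.0192). It had 63.8, 147 and 156 in LP TR, against 363, 709 and 1004 in LP SP (-2.48 ± 0.46, adjusted p = 0.0252). Bcl2 thus fell in Foxp3+ cells at both sites, where Gimap3 and Gimap1 rose at 1 site each. Gabarapl2 was the other gene that fell in LP TR (log2 fold change -0.71 ± 0.10, adjusted p = 0.00922). In DP against TR 1 partner gene rose in the epithelium, Bcl2 (2.16), and 2 rose in the lamina propria, Bcl2 (2.65) and Gabarapl1 (0.85). Of all tested genes 1.78% and 3.86% rose in those comparisons. In IEL DP against LP DP 1 rose, the kinase gene Gsk3b (log2 fold change 0.44, adjusted p = 0.0269), and 1 fell, Gabarapl1, with means of 286 and 912 normalised counts (adjusted p = 0.00502). In IEL SP against LP SP 1 rose and 3 fell: the smallest p were those of Map1lc3a (-2.26, adjusted p = 0.00745) and Gabarapl1, with means of 229 and 621 (adjusted p = 0.0102), which fell, and of Gsk3b (0.44, adjusted p = 0.0349), which rose. The list medians in those 2 site comparisons were 0.06 and -0.10, against 0.05 and 0.03 over all tested genes. Of all tested genes 3.13% rose and 4.06% fell in DP cells, and 2.25% rose and 3.68% fell in SP cells.

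Another family of GTPases, those induced by interferon, was set beside the GIMAP genes: of 18 listed, 17 were tested. In IEL TR against IEL SP 3 rose and none fell, Gbp7 (log2 fold change 1.45), Iigp1 (3.13) and Gbp3 (1.56), and in LP TR against LP SP 5 rose, led by Iigp1 (2.41), Gbp6 (1.20) and Gbp7 (1.37). Of all tested genes 1.49% and 3.24% rose in those comparisons. The medians of the list were 0.69 and 0.38, and those of all tested genes -0.05 and -0.01. In DP against TR 2 fell in the epithelium, Gbp7 (-1.47) and Iigp1 (-4.89), and 7 in the lamina propria, led by Gbp7 (-1.91), Gbp3 (-1.74) and Igtp (-1.68). Of all tested genes 2.36% and 6.78% fell there. In the epithelium against the lamina propria 4 rose in DP cells, led by Tgtp1 (1.22), Tgtp2 (1.15) and Irgm1 (0.67), and 4 rose in SP cells, led by Tgtp1 (1.08), Tgtp2 (1.14) and Gbp8 (0.47). Of all tested genes 3.13% rose in DP cells and 2.25% in SP cells. No gene of these lists passed the test between IEL TR and LP TR. Tgtp1 and Tgtp2 are near-identical copies whose reads can be split between them.

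Of 21 genes listed by symbol as neighbours of the cluster, Gimap1os included, 17 were in the table and 11 were tested. Apart from that of Gimap1os, their positions were not looked up. The list may therefore hold genes from elsewhere in the genome and older names of the same gene. None passed the test between sites in any population. In TR against SP none passed in the epithelium and 2 fell in the lamina propria, Repin1 (log2 fold change -2.32) and Tmem176b (-3.93). Of all tested genes 2.28% fell in the lamina propria there. In DP against TR none rose and 2 fell in the epithelium, Gimap1os and Zfp467 (-3.29, adjusted p = 0.0352), and 1 rose and 3 fell in the lamina propria. The smallest p in the lamina propria were those of Zfp467 (-3.14, adjusted p = 0.00301) and Lrrc61 (-1.54, adjusted p = 0.0138), which fell, and Repin1 (2.30, adjusted p = 0.0210), which rose. Of all tested genes 1.78% rose and 2.36% fell in the epithelium, and 3.86% rose and 6.78% fell in the lamina propria.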

How the data were processed

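RNA of 18 libraries was sequenced, and per the labels it was purified on beads and prepared with Nextera XT. TopHat, HTSeq and mm10 (GRCm38) are named, without versions, in the submitters' processing notes. The deposited signal per gene equals reads times 1 factor per library, and how the factors were made is not given in the sources used here. Dividing by each library's step gave whole reads for 100% of values (tolerance 0.1 read), used only for edgeR 4.0.16 and DESeq2 1.42.0. Genes with at least 10 normalised counts in at least 3 libraries were tested on log2(value + 1), a scale that understates changes of low genes, with limma 3.58.1 (R 4.3.3; trend and robust) on the groups compared, and Benjamini-Hochberg adjustment over all 15472 genes at 0.05. Alternatives were all 18 libraries in 1 fit, a pseudocount of 5, no filter, library weights, a replicate block, equal totals, both count tools and leaving out each library. An exact permutation test of 3 against 3 libraries cannot give a p under 0.1. Members, lists and motifs were chosen with earlier results of these data known. All members are named; of each list, those called among the 3 smallest p, and by Pearson r the 5 genes most like and most opposite to the members' mean profile. PCR duplicates cannot be told from independent molecules.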

Additional observations from a re-analysis of the deposited data

How the results depend on the processing

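The number of members called moved with the settings as follows. With no filter on low values it was 0 for IEL TR against IEL SP, LP TR against LP SP, IEL DP against IEL TR, LP DP against LP TR and IEL DP against LP DP. With all 18 libraries in 1 fit it was 3 for IEL TR against IEL SP, 5 for IEL DP against IEL TR, 3 for IEL DP against LP DP and 5 for IEL TR against LP TR. With DESeq2 it was 3 for IEL TR against IEL SP, 2 for LP TR against LP SP, 4 for IEL DP against IEL TR, 7 for LP DP against LP TR and 4 for IEL TR against LP TR. With equal totals it was 0 for IEL TR against IEL SP and 0 for IEL DP against IEL TR, and the median of all genes moved to -0.20 and 0.24 on the log2 scale, from -0.05 and 0.06. Leaving out 1 library gave 0 to 1 for IEL TR against IEL SP, 0 to 1 for LP TR against LP SP, 0 to 2 for IEL DP against IEL TR, 0 to 4 for LP DP against LP TR, 2 to 4 for IEL DP against LP DP and 1 to 3 for IEL SP against LP SP. The cause of these shifts was not tested. In DP against SP at both sites and in both site dependences the number was 0 under every alternative run.

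With the replicate number as a block it was 0 for IEL TR against IEL SP, 2 for LP TR against LP SP, 2 for LP DP against LP TR and 3 for IEL DP against LP DP, and the other counts did not move by over 1.5 times. Under the block Gimap1 and Gimap4 were called in LP TR against LP SP and in LP DP against LP TR. Gimap1, Gimap7 and Gimap8 were called in IEL DP against LP DP and in IEL SP against LP SP. Gimap3 was called in IEL DP against IEL TR. The labels do not say that equal numbers pair libraries. Deviations from the group means correlated at 0.00053 to 0.0887 over 45 pairs of same-numbered libraries from different groups. Averaged over the other groups, the correlation was highest with the library's own number in 18 of 18 libraries. These weak correlations thus followed the replicate number, for a reason not given in the labels, and the main tests took no account of it.

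Over all genes the number called was 450 for IEL TR against IEL SP (63 to 1799 under the alternatives, 37 to 629 with a library omitted), 854 for LP TR against LP SP (219 to 1631, 460 to 634), 640 for IEL DP against IEL TR (9 to 2170, 143 to 817), 1646 for LP DP against LP TR (636 to 2414, 1045 to 1211), 1112 for IEL DP against LP DP (442 to 2252, 419 to 655), 93 for IEL TR against LP TR (0 to 1008, 0 to 159), 917 for IEL SP against LP SP (265 to 1923, 427 to 677), 9 for IEL DP against IEL SP (0 to 132, 0 to 1), 45 for LP DP against LP SP (14 to 343, 5 to 21) and 26 for the site dependence of TR against SP (13 to 186, 0 to 73).

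Signs turned only in uncalled log2 fold changes near 0. Gimap7 in IEL DP against IEL SP was -0.0076 with library weights. Gimap5 in LP DP against LP SP was 0.027 with library weights, 0.0069 with edgeR and 0.0026 with DESeq2. Gimap9 in LP TR against LP SP was -0.024 with library weights, -0.032 with equal totals, -0.010 with edgeR and -0.0035 with DESeq2. In the site dependence of TR against SP, Gimap7 was -0.019 with equal totals, and Gimap8 was -0.097 with library weights and -0.053 with equal totals. With 1 library omitted, IEL DP against IEL SP ran from -0.094 to 0.0097 for Gimap1, -0.073 to 0.14 for Gimap3, -0.17 to 0.0035 for Gimap5, -0.057 to 0.063 for Gimap7, -0.012 to 0.12 for Gimap8 and -0.091 to 0.13 for Gimap9. LP DP against LP SP ran from -0.16 to 0.047 for Gimap1, -0.084 to 0.062 for Gimap5 and -0.094 to 0.015 for Gimap8, LP TR against LP SP from -0.069 to 0.17 for Gimap9, and IEL DP against IEL TR from -0.35 to 0.0087 for Gimap8. The site dependence of DP against SP ran from -0.092 to 0.11 for Gimap1, -0.17 to 0.0070 for Gimap5 and -0.071 to 0.13 for Gimap6, and that of TR against SP from -0.032 to 0.39 for Gimap4, -0.031 to 0.24 for Gimap6, -0.086 to 0.26 for Gimap7 and -0.16 to 0.19 for Gimap8. Behind each member's value lay 593 to 23487 reads, and precision is set by the spread of 3 libraries a group.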
